A study of Mus musculus with 6 samples.

Results

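Transcripts for the subunits of respiratory complexes II to V and for cytochrome c were compared between mouse 3T3-L1 cells cultured alone and mouse 3T3-L1 cells that shared their medium with human mesenchymal stem cells of the umbilical cord. The members were taken by name from the deposited expression table: protein-coding genes whose symbols begin with Cox4 to Cox8, Uqcr or Atp5, together with Cyc1, Cycs, Sdha to Sdhd and the mitochondrial genes COX1, COX2, COX3, CYTB, ATP6 and ATP8. This gave 53 of the 21436 genes in the table, 47 encoded in the nucleus and 6 in mitochondrial DNA. They fall into 4 genes of complex II, 10 of complex III, 1 for cytochrome c, 19 of complex IV and 19 of complex V.

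3T3-L1 is a wild-type line of mouse embryonic fibroblasts that serves as a model of preadipocytes and can be turned into adipocytes by hormones. In every library the cells sat at the bottom of a Transwell, under an insert with 0.4 µm pores, and were kept for 72 h in high-glucose medium with 10% serum, 2 µM rosiglitazone (an agonist of the receptor PPARγ), 1 µM dexamethasone (a glucocorticoid), 0.5 mM IBMX (which blocks the breakdown of cyclic AMP) and 10 mg/L insulin. The upper chamber held no cells (alone, 3 libraries) or the human stem cells (co-culture, 3 libraries), so both groups received the same adipogenic mixture and all are samples of 1 cell line. The labels do not say that the replicates were separate cultures, and p-values measure the spread between these libraries, which may be technical.

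The respiratory chain passes electrons from nutrients to oxygen across the inner mitochondrial membrane. Complex II oxidises succinate and feeds ubiquinone, complex III moves the electrons to cytochrome c, and complex IV, cytochrome c oxidase, hands them to oxygen. Complexes III and IV pump protons, and complex V, the ATP synthase, lets them flow back to make ATP. All subunits of complex II and cytochrome c are encoded in the nucleus, while complexes III, IV and V mix nuclear and mitochondrial products. Mitochondrial content is known to rise as preadipocytes become adipocytes, and many of the nuclear genes carry promoter sites for the factors NRF1 and GABP.

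The promoters of 6 called members are shown, because they are the called genes with the smallest p in each direction among those with a RefSeq window. Each line gives the 170 bases just before the RefSeq start (GRCm38.p6, the same assembly as mm10), read 5′ to 3′ on the gene's strand. Capitals mark a match on either strand to the NRF1 core CGCATGCG, the ETS motif CCGGAAG bound by GABP, or the cyclic AMP response element TGACGTCA. The first 3 genes were higher in co-culture and the last 3 lower.

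Uqcrh, chr4:116075071-116075240, minus strand: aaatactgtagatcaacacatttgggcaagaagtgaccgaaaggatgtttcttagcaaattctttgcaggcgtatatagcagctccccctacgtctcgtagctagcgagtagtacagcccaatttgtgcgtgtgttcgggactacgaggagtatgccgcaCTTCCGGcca

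Atp5e, chr2:174464102-174464271, minus strand: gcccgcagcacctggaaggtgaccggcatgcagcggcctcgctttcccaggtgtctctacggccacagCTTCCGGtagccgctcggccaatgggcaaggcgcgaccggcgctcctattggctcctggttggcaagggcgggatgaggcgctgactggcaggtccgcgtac

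Cox6b1, chr7:30626115-30626284, minus strand: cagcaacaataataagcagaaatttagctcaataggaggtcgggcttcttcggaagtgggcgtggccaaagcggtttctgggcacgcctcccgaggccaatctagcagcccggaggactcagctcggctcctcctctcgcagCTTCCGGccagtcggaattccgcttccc

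Cycs, chr6:50566570-50566739, minus strand: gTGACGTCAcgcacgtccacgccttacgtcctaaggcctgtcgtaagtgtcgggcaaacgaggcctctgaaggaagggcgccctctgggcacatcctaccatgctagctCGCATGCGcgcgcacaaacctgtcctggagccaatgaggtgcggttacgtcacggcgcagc

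Atp5b, chr10:128083137-128083306, plus strand: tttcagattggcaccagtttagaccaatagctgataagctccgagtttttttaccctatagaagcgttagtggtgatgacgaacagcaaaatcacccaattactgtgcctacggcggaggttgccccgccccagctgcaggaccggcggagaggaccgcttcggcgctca

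Atp5pb, chr3:105959264-105959433, minus strand: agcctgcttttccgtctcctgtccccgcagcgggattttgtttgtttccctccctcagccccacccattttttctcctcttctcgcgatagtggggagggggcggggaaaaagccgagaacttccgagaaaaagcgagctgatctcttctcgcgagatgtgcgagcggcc

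The Uqcrh, Atp5e and Cox6b1 windows each held the ETS letters, beginning at −10, −102 and −28 relative to the start. Cycs held no ETS letters but had the NRF1 core at −61 and the cyclic AMP response element at −169. Atp5b and Atp5pb had no match to these 3 motifs in the bases shown. RefSeq windows, 250 bases before to 50 bases after the start, were matched for 36 of the 47 nuclear members and for 27025 genes in all. Those genes were not limited to expressed ones, and only the first window of each gene was counted. A further window of Atp5j, left out of the counts, held the NRF1 core and the ETS letters. The ETS letters stood in 33.3% of the members' windows and 9.12% of all windows, and the NRF1 core in 19.4% and 1.91%. The response element stood in 5.56% of the members' windows against 1.88% of all, the YY1 letters AAGATGG in 8.33% against 6.48%, and the letters AAGGTCA of oestrogen-related receptors in 13.9% against 4.66%. Among the members called higher, 7 had a window and 3 of these held the ETS letters. Of the 3 members called lower that had a window, 0 did. A match describes letters only, and these counts are too small to compare.

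Levels are given in FPKM, that is, fragments scaled to gene length and library total. Levels of different genes compare per length and so depend on the length used. For Cox5a and Atp5j that length was far longer than the coding transcripts. Whole reads recovered from the values gave library totals of 29603755 to 38357563, of which members held 3.21% to 3.45% and nuclear members 0.475% to 0.511%. Fibroblast and preadipocyte markers fitted the labelled cell type: 10 of 10 were expressed, with a summed level of 4628 to 4810 FPKM alone and 4719 to 4785 in co-culture. All 5 mature adipocyte markers in the table stayed at or under 0.0670 FPKM, summing to 0.0383 to 0.0895 alone and 0.0896 to 0.130 in co-culture. Each library averages over many cells, so fewer cells with a transcript and less of it per cell cannot be told apart. A gene was tested with limma on log2(FPKM + 1) where its mean over the 6 libraries reached 1 FPKM. It was called higher or lower at a Benjamini-Hochberg adjusted p below 0.05 over all 10055 tested genes. Of the 53 members, 48 were tested and 5 were below that level. The similar sums of the 10 fibroblast and preadipocyte markers hide calls in both directions. Of these 10, 4 were called higher (40%, against 13.9% of all tested genes) and 2 lower (20%, against 17.9%).

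Alone replicate 1 stood apart from the other libraries of its group. It had the highest value of the 3 alone libraries in 39 of the 42 tested nuclear members (92.9%) and the lowest in 0, against the highest in 37.9% of all tested genes. The median nuclear member lay 0.065 above the mean of the alone libraries (log2) in that library, and −0.041 and −0.035 from it in alone replicates 2 and 3. The 38 tested nuclear genes of complex I, taken as a comparison, did the same, with that library highest in 34. The mean chi-square per gene between it and alone replicates 2 and 3 was 11 and 14.3, while other pairs within a group had 3.70 to 5.45, so no pair of libraries was a copy. Calls without this library are given with the results. In co-culture the medians were 0.037, 0.048 and 0.067, so alone replicate 1 lay within the range of the co-culture libraries for the typical subunit.

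**Figure D1:**
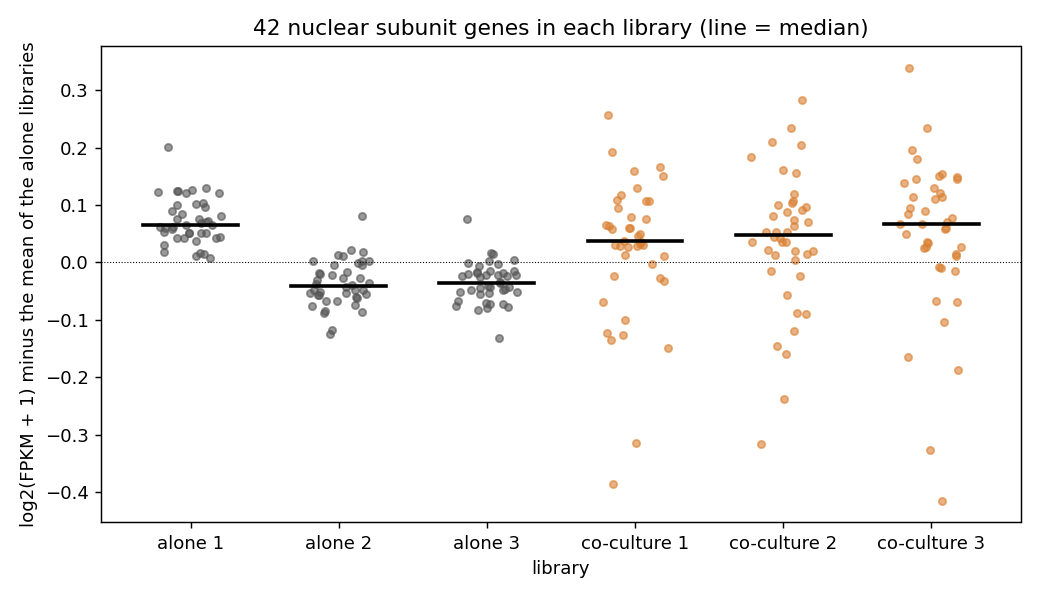
Points are the 42 tested nuclear subunit genes in each library, plotted as log2(FPKM + 1) minus the gene's mean over the 3 alone libraries, with a line at the median. Alone replicate 1 has its median at 0.065, above the medians of −0.041 and −0.035 in the other alone libraries and close to the 0.037 to 0.067 of the co-culture libraries.

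Most subunit transcripts differed little between the groups, and a few moved in opposite directions. Of the 48 tested members, 7 were called higher in co-culture (14.6%, against 13.9% of all tested genes) and 5 lower (10.4%, against 17.9%), and 36 were not called. Those higher were Uqcrh, Atp5e, Cox6b1, Cox7a2, Uqcrfs1, Sdha and Atp5g2, and those lower Cycs, Uqcrq, Atp5b, Cyc1 and Atp5pb. The share called higher was near that of all tested genes, and the share called lower was below it. The median change was 0.05 (log2) against −0.004 for all tested genes, the range was −0.35 to 0.29, and 45 of 48 members changed by less than 0.2 in size, 93.8% against 78.4% of all tested genes. Co-culture values lay above all alone values in 12 members (25%, against 21.3% of all tested genes) and below them in 6 (12.5%, against 24.8%).

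The number called higher depended on the libraries included and on the scaling, while the number called lower stayed at 4 to 6. Without alone replicate 1, 18 members were called higher (14.1% of all tested genes were) and 4 lower (17.4% of all), and these include all 7 of the higher and 4 of the 5 lower genes above. Without alone replicate 2, without alone replicate 3 or without co-culture replicate 3, 3, 4 and 3 members were called higher. The split of 7 higher to 5 lower became 14 to 4 under quantile normalization, where 16.5% of all tested genes were called higher and 15.9% lower. It became 14 to 5 with a correction for GC content and gene length, where 18.7% of the 9973 genes in that fit were called higher and 17.2% lower. When FPKM were rescaled without mitochondrial genes it became 11 to 5, with 13.9% of all tested genes higher and 15.9% lower. Mitochondrial mRNAs took 4.40% to 4.62% of reads alone and 4.82% to 5% in co-culture, and FPKM of all other genes are scaled to totals that include them. The 6 genes called in each of the 6 fits that left out 1 library were Uqcrh and Atp5e, higher, and Cycs, Uqcrq, Atp5b and Cyc1, lower. Without alone replicate 1 the log2 changes of the 7 genes called higher were 0.15 (Sdha) to 0.36 (Uqcrh), each larger than with it. Those of the 5 called lower were −0.34 (Cycs) to −0.08 (Atp5pb, then not called), each smaller in size.

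**Figure D2:**
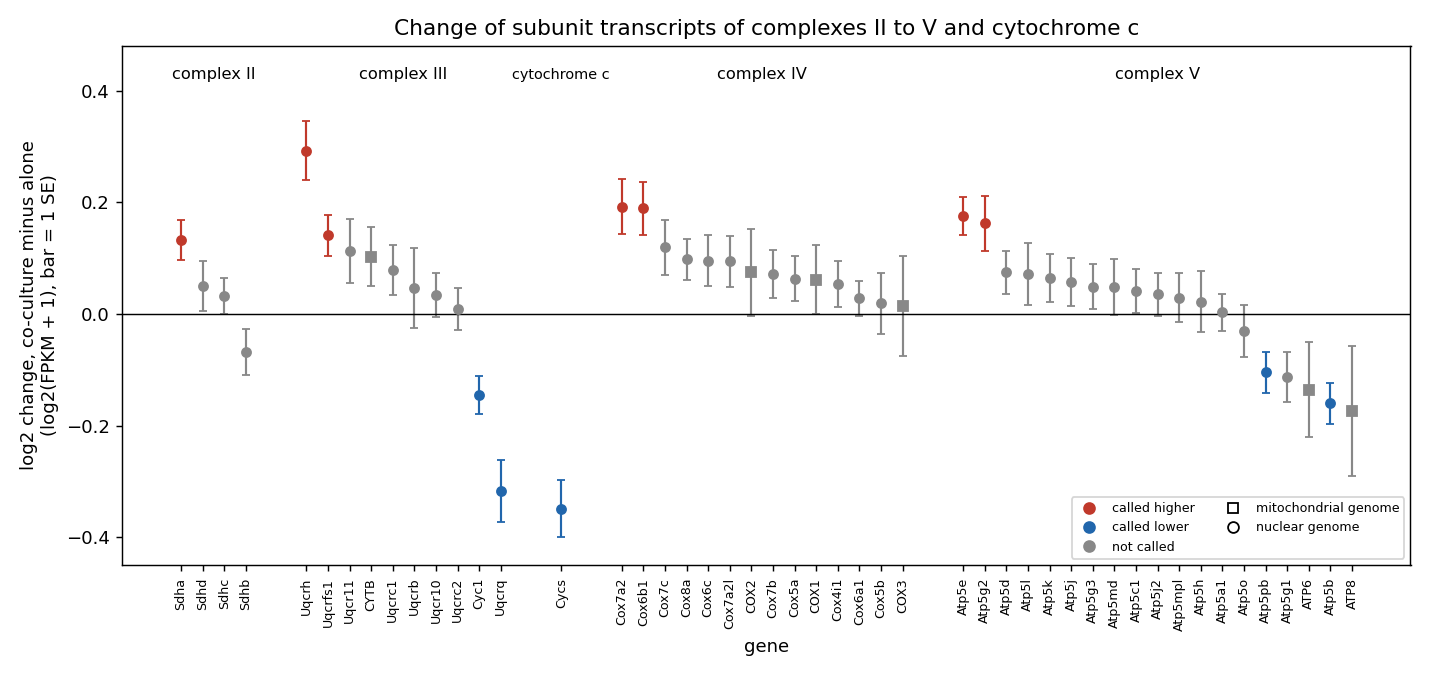
Points are the log2 change, co-culture minus alone, of the 48 tested members on the log2(FPKM + 1) scale with bars of 1 SE, grouped by complex and ordered by size, with squares for mitochondrial genes. The values run from −0.35 for Cycs to 0.29 for Uqcrh, all 14 of complex IV lie above 0, and complex III holds both large positive and large negative values.

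Complex II, succinate dehydrogenase, has 4 subunits that were expressed within a narrow range, from 42.5 FPKM for Sdhb to 78.1 for Sdhc. Sdha, the flavoprotein that holds the FAD and oxidises succinate, was 62.9, 62.5 and 59.4 FPKM alone and 68.9, 66.1 and 67.9 in co-culture. The groups did not overlap, and Sdha was 9.7% higher in co-culture (log2 change 0.13, SE 0.037, limma adjusted p = 0.0192). Leaving out alone replicate 3, co-culture replicate 1 or its replicate 3 ended that call (adjusted p = 0.0703, 0.0775 and 0.0636).

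Sdhb, the iron-sulfur subunit that takes electrons from Sdha, was 45.4, 42.6 and 42.4 FPKM alone and 40.5, 40.8 and 43.0 in co-culture, with overlapping groups and no call (log2 change −0.07, adjusted p = 0.227). The ratio of Sdha to Sdhb was 1.42 ± 0.044 alone and 1.63 ± 0.063 in co-culture (SD, n = 3), each co-culture library above each alone library. Sdhc, one of the anchors in the membrane that bind haem and ubiquinone, stood at 77.6, 76.9 and 77.1 FPKM alone and 78.8, 80.1 and 78.0 in co-culture. Its partner anchor Sdhd stood at 57.9, 51.7 and 52.3 FPKM alone and 55.9, 56.8 and 55.0 in co-culture. The Sdhc groups were separate by a small step and the Sdhd groups overlapped because alone replicate 1 was the highest of all 6. Neither anchor was called (adjusted p = 0.469 and 0.428), though Sdhd was called higher without alone replicate 1 (log2 change 0.10, adjusted p = 0.0424).

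Complex III, the cytochrome bc1 complex, held the largest rise of the 48 tested members and, after Cycs, the largest fall among them. Its 9 nuclear genes ran from 47.5 FPKM for Uqcrq to 210.9 for Uqcrh, a 4.44-fold range. Uqcrh, the acidic hinge protein that helps cytochrome c1 meet cytochrome c, was 206.6, 178.5 and 183.8 FPKM alone and 226.3, 230.4 and 239.7 in co-culture. It was 1.22-fold higher (log2 change 0.29, SE 0.052, adjusted p = 0.00203), with every co-culture library above every alone library. Without alone replicate 1 the change was 0.36. Uqcrh overlaps Gm12854, listed at 8.24 FPKM, and the reads of the pair cannot be told apart where counting ignored strand.

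Uqcrq, a small accessory subunit, went the other way. It was 57.4, 50.9 and 50.1 FPKM alone and 40.1, 44.5 and 41.8 in co-culture, without overlap. Its level fell by 20.2% (log2 change −0.32, SE 0.056, adjusted p = 0.00187), and −0.26 without alone replicate 1. The ratio of Uqcrh to Uqcrq went from 3.59 ± 0.082 alone to 5.52 ± 0.300 in co-culture. The ratio in alone replicate 1 was 3.60, inside the 3.51 to 3.67 of the other alone libraries, although that library was highest for both genes.

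Cyc1, cytochrome c1, which carries the haem that passes electrons to cytochrome c, was 59.5, 59.5 and 57.3 FPKM alone and 53.8, 53.0 and 52.3 in co-culture. It fell 1.11-fold (log2 change −0.15, SE 0.034, adjusted p = 0.00868), and the groups did not overlap. Uqcrfs1, the Rieske iron-sulfur protein that takes electrons from ubiquinol, was 49.6, 46.8 and 48.1 FPKM alone and 51.9, 54.0 and 53.7 in co-culture. It rose by 10.4% (log2 change 0.14, SE 0.036, adjusted p = 0.0143), and the call was lost without alone replicate 2 (0.0569) or without co-culture replicate 3 (0.0547). So the electron-carrying subunits encoded in the nucleus were called in opposite directions.

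The other nuclear genes of complex III were not called. The core proteins Uqcrc1 and Uqcrc2 changed by 0.08 and 0.01 (log2), and the small subunits Uqcr10, Uqcr11 and Uqcrb by 0.03, 0.11 and 0.05. Uqcrb was the member with the widest alone spread among them, at 137.5 ± 17.3 FPKM against 141.3 ± 5.34 in co-culture, and was called higher without alone replicate 1 (0.15, adjusted p = 0.0169).

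Cycs, the gene for somatic cytochrome c, the soluble carrier between complexes III and IV that also starts apoptosis when released, had the largest fall of the 48 tested members. It stood at 19.8, 18.4 and 20.7 FPKM alone and 15.6, 15.6 and 14.5 in co-culture. Every co-culture library was below every alone library, and the fall was 1.29-fold (log2 change −0.35, SE 0.051, adjusted p = 0.00063). With each library left out in turn the change was −0.39 to −0.31 and was called each time. Of its transcript's windows of 100 bases, 24.7% also occur in transcripts of other genes, 2 of the 3 being processed pseudogenes, so part of its reads could have been assigned elsewhere or discarded.

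**Figure D3:**
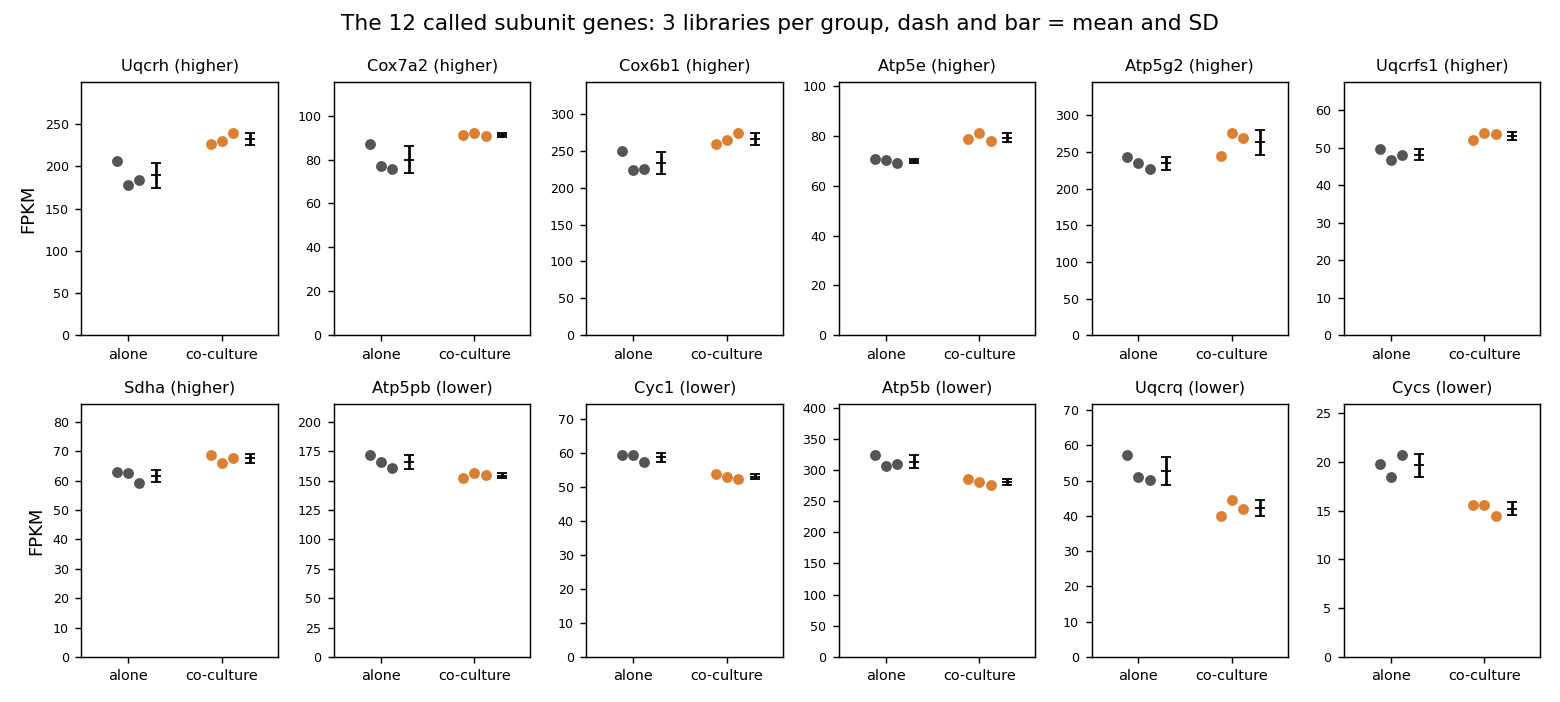
Each panel shows FPKM in the 3 alone and 3 co-culture libraries for 1 of the 12 called members, on an axis from 0, with the mean and SD beside them. The groups do not overlap in any panel, and the steps are small next to the level, with Uqcrh going from 189.7 to 232.1 FPKM and Cycs from 19.6 to 15.2.

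Complex IV, cytochrome c oxidase, was the complex in which all 14 tested genes had a positive change, with a median of 0.07 (log2). Only 2 of them were called, both higher (14.3%, against 13.9% of all tested genes). Over all 10055 tested genes, 4939 changes were above 0. Not every positive sign in complex IV held when a library was left out. The lowest changes were then −0.010 for COX2, −0.016 for Cox5b and −0.100 for COX3. The 11 tested nuclear genes of the complex spanned 25.2 FPKM for Cox5a to 408.8 for Cox6c, a 16.2-fold range. That range depends on the gene length used, 3153 bases for Cox5a and 503 for Cox6c. Their longest GENCODE coding transcripts have 645 and 738 bases, and their reads were 17201 and 44571 in all. Cox6b1, which faces the intermembrane space where cytochrome c docks, was 250.4, 223.9 and 225.7 FPKM alone and 258.6, 264.7 and 274.3 in co-culture. It rose 1.14-fold (log2 change 0.19, SE 0.047, adjusted p = 0.0119) without overlap. Leaving out alone replicate 2 (adjusted p = 0.0515) or co-culture replicate 3 (0.0556) ended the call.

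Cox7a2, the widely expressed form of subunit VIIa, was 87.0, 77.2 and 75.7 FPKM alone and 91.3, 92.2 and 90.5 in co-culture. It also rose 1.14-fold without overlap (log2 change 0.19, SE 0.049, adjusted p = 0.0136), and the call was lost without alone replicate 2 (0.0524) or without alone replicate 3 (0.0501). The gene overlaps Tmem30a, at 53.9 FPKM. The change without alone replicate 1 was larger, 0.24 for Cox6b1 and 0.25 for Cox7a2.

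Cox8a, a small membrane subunit, stood at 197.9, 192.3 and 186.3 FPKM alone and 210.2, 201.7 and 205.1 in co-culture (log2 change 0.10, adjusted p = 0.0619). Cox7c, another of the small subunits, stood at 266.7, 236.0 and 232.8 FPKM alone and 263.9, 265.8 and 267.9 in co-culture (log2 change 0.12, adjusted p = 0.0913). The co-culture values of Cox8a were above all its alone values, and for Cox7c alone replicate 1 reached the co-culture level. Cox6c, the nuclear gene of the complex with the highest FPKM, stood at 423.3, 375.1 and 388.2 FPKM alone and 421.9, 417.8 and 426.3 in co-culture (log2 change 0.10, adjusted p = 0.139). In this gene too the high alone value came from replicate 1, and the other alone libraries were below all co-culture libraries.

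The remaining nuclear genes of complex IV were not called: Cox7a2l, which is found in supercomplexes of complexes III and IV (log2 change 0.09), Cox7b (0.07), Cox5a (0.06), Cox4i1 (0.05), Cox6a1 (0.03) and Cox5b (0.02). Without alone replicate 1, 8 of the 14 genes of complex IV were called higher and 0 lower, against 14.1% and 17.4% of all tested genes. The 8 were Cox6b1, Cox7a2, Cox7c, Cox6c, Cox8a, Cox7a2l, COX1 and COX2. Summed over its nuclear genes, complex IV stood at 2216, 2037 and 2021 FPKM alone and 2229, 2203 and 2263 in co-culture, so the difference of the means lay almost wholly in alone replicates 2 and 3.

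Several subunits of complex IV have isoforms used in muscle, lung, testis or brown fat, and these were nearly absent. Cox4i1, the general form of subunit IV, stood at 345.4, 331.5 and 311.2 FPKM alone and 343.1, 338.9 and 342.9 in co-culture, while the lung form Cox4i2 had 3 reads alone and 2 in co-culture. Cox6a1 stood at 168.0, 164.1 and 166.3 FPKM alone and 169.6, 168.5 and 170.2 in co-culture. Both general forms were far above their isoforms in all 6 libraries, and neither was called. The testis form Cox6b2 had 0 reads alone and 1 in co-culture, and Cox8b, found in muscle and brown fat, had 1 and 2. Cox7a1, the muscle and brown fat partner of Cox7a2, had 18 reads alone (1, 10 and 7) and 17 in co-culture (3, 6 and 8). Cox7b2 and Cox8c had no row under those names in the deposited table.

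Cox6a2, the striated muscle partner of Cox6a1, was low in both groups and lower in co-culture. It was 0.400, 0.714 and 0.514 FPKM alone and 0.103, 0.0403 and 0.163 in co-culture, from 40 and 7 reads. The groups did not overlap, the ratio of means was 5.33-fold, and with no filter on low values limma gave an adjusted p of 0.0225 (in that fit 5.84% of the 21436 genes were called lower and 4.37% higher). The same fit also called genes near 0, such as Retn, at 0 FPKM alone and 0.0226 in co-culture (adjusted p = 0.0273). Cox6a2 was too low to enter the other fits. The 5 striated muscle markers in the table were near 0 in both groups, with no value above 0.129 FPKM and sums of 0.122 to 0.228 FPKM alone and 0.0818 to 0.133 in co-culture. The gene Itgad, which overlaps Cox6a2, was at 0.00554 FPKM. Blood markers were also lower in co-culture, with 2 of the 4 tested called lower (50%, against 17.9% of all tested genes), and 1 without alone replicate 1. They summed to 16.6 to 30.4 FPKM alone and 3.71 to 17.9 in co-culture, and their part in the Cox6a2 result was not tested.

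Complex V, the ATP synthase, had 2 genes called higher and 2 called lower among 19, all in the nucleus. Each share was 10.5%, against 13.9% of all tested genes called higher and 17.9% lower. The 17 nuclear genes of complex V ran from 19.8 FPKM for Atp5j to 296.7 for Atp5b, a 15.0-fold range. That range too depends on length, since 4137 bases were used for Atp5j and its longest GENCODE coding transcript has 809. Atp5e, the epsilon subunit of the central stalk, was 70.9, 70.2 and 69.3 FPKM alone and 78.8, 81.2 and 77.9 in co-culture. Its alone libraries were close together, alone replicate 1 included, and it rose 1.13-fold (log2 change 0.18, SE 0.033, adjusted p = 0.00277) without overlap.

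Atp5b, the catalytic beta subunit, was 324.4, 305.4 and 310.0 FPKM alone and 285.2, 280.3 and 274.9 in co-culture. It fell 1.12-fold (log2 change −0.16, SE 0.037, adjusted p = 0.0077), and the groups did not overlap. The alpha subunit Atp5a1, which alternates with beta in the catalytic ring, was 160.8 ± 3.80 FPKM alone and 161.1 ± 1.08 in co-culture and was not called (log2 change 0.003, adjusted p = 0.954). The ratio of beta to alpha transcripts was 1.97, 1.94 and 1.94 alone and 1.76, 1.74 and 1.72 in co-culture, though the proteins are present in equal number.

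Atp5pb, subunit b of the outer stalk, was 172.2, 165.6 and 160.7 FPKM alone and 152.5, 156.2 and 154.5 in co-culture, a fall of 1.08-fold without overlap (log2 change −0.10, SE 0.036, adjusted p = 0.0461). It was the least stable call: it held when alone replicate 3 was left out and was lost without each of the others, at adjusted p of 0.0707 to 0.147. Among all members its adjusted p was the closest to the threshold.

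The membrane ring of complex V is built from subunit c, which 3 genes encode as the same mature protein with different import sequences. Atp5g2, with the highest FPKM of them, was 243.4, 234.6 and 226.2 FPKM alone and 244.2, 276.2 and 268.9 in co-culture. It rose 1.12-fold (log2 change 0.16, SE 0.049, adjusted p = 0.0282), but co-culture replicate 1 was only just above alone replicate 1. Leaving out alone replicate 2 or 3 (adjusted p = 0.0715 and 0.092), or replicate 2 or 3 of the co-culture (0.105 and 0.102), ended the call. Atp5g1, the regulated member of the trio, stood at 30.4 ± 1.65 FPKM alone and 28.0 ± 0.824 in co-culture (log2 change −0.11, adjusted p = 0.0816), and Atp5g3 changed by 0.05. Of the summed FPKM for subunit c, Atp5g1 made up 7.49%, 7.16% and 7.43% alone and 6.47%, 6.05% and 6.45% in co-culture, and Atp5g2 56.9 ± 0.821% and 59.2 ± 1.196%. These shares and the order of the genes depend on the gene lengths used. Atp5g3 had more reads than Atp5g2 (45500 against 34962 in all), with 1396 bases used against 647. Their longest GENCODE coding transcripts have 723 and 753 bases.

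The other nuclear genes of complex V were not called. The gamma and delta subunits of the central stalk, Atp5c1 and Atp5d, changed by 0.04 and 0.07, and the stalk protein Atp5o, which confers oligomycin sensitivity, by −0.03. Atp5h, Atp5j, Atp5j2, Atp5k, Atp5l, Atp5md and Atp5mpl, of the outer stalk and membrane part, lay between 0.02 and 0.07. Atp5l shares 69.0% of its transcript windows with pseudogenes and other transcripts, and Atp5o 47.1%, Atp5h 29.5% and, in complex III, Uqcrc2 22.7%, so the levels of these 4 are less certain. The summed FPKM of the nuclear genes of complex V had a ratio of 1.01, co-culture over alone, beside 1.03 for complex II, 1.06 for complex III and 1.07 for complex IV.

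The 6 members in mitochondrial DNA are cut from long shared transcripts, and 0 of 6 were called in the fit of all libraries (limma, 0.05). At an unadjusted p below 0.05 the count was also 0, the smallest being 0.081 for CYTB, and limma-voom on the recovered reads gave adjusted p of 0.06 to 0.874. COX1, the catalytic subunit of complex IV, stood at 15280, 14680 and 14620 FPKM alone and 15260, 15590 and 15640 in co-culture (log2 change 0.06, adjusted p = 0.482). CYTB, the cytochrome b of complex III, stood at 4139, 4074 and 3958 FPKM alone and 4156, 4564 and 4354 in co-culture (log2 change 0.10, adjusted p = 0.167). The co-culture values of CYTB were above all alone values, and those of COX1 overlapped through alone replicate 1. Without alone replicate 1 both were called higher, at adjusted p of 0.0399 for COX1 and 0.0476 for CYTB. Both were also called higher after the correction for GC content and gene length (0.00611 and 0.00798), and CYTB when FPKM were rescaled without mitochondrial genes (0.0323).

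For mitochondrial members with near copies in the nuclear genome, the values may depend on how reads with several matches were treated. That treatment is not given in the sources used here, and its effect was not tested. Together COX1 and CYTB held 97.9% to 98.2% of the FPKM of the mitochondrial members. COX2, which receives the electrons from cytochrome c, stood at 175.5, 150.8 and 136.5 FPKM alone and 154.0, 157.5 and 173.9 in co-culture. COX3, the other core subunit of complex IV, stood at 81.1, 74.8 and 89.1 FPKM alone and 74.6, 77.2 and 96.7 in co-culture. ATP6, the subunit of complex V that forms the proton channel with the c ring, stood at 138.0, 125.2 and 102.1 FPKM alone and 107.0, 111.4 and 111.4 in co-culture. The groups overlapped in all 3 genes, and their levels were far below that of COX1, encoded on the same strand.

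In COX2, COX3 and ATP6, 99.5%, 99.9% and 99.5% of the windows of 100 bases also occur in an unprocessed pseudogene of the nuclear genome (GENCODE M21 transcripts). CYTB shares 0% and COX1 30.8%. ATP8, a small subunit of complex V, shares 0% of its windows but overlaps ATP6 and is only 204 bases long, and it stood at 16.2, 15.7 and 16.1 FPKM alone and 14.9, 17.1 and 10.9 in co-culture. Its groups overlapped, and the low library was co-culture replicate 3. ATP6 was called lower without alone replicate 3 (log2 change −0.26, adjusted p = 0.00465) and ATP8 without co-culture replicate 2 (−0.31, adjusted p = 0.0461).

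**Figure D4:**
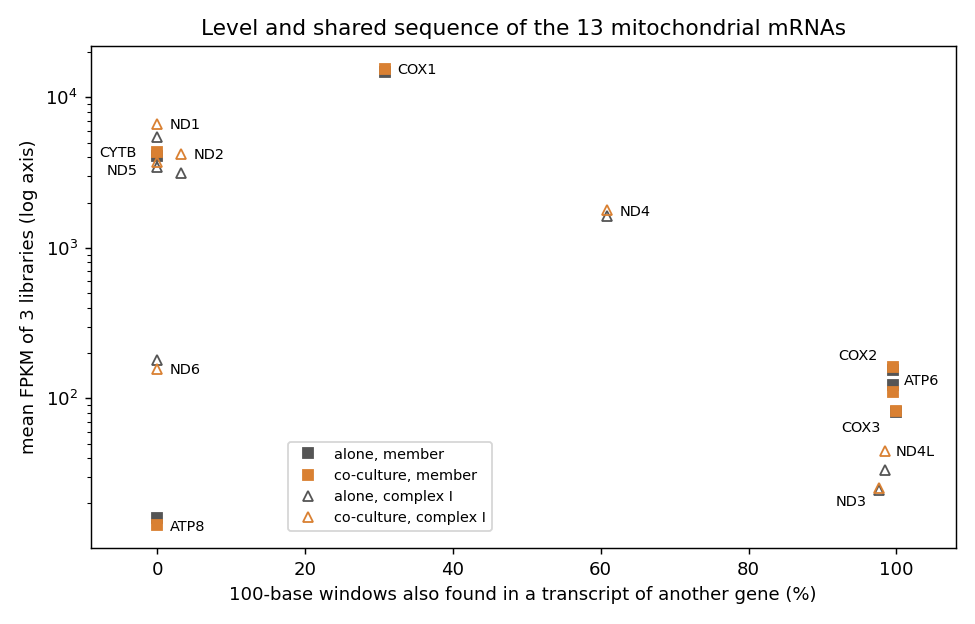
The x axis gives the percent of windows of 100 bases of each mitochondrial mRNA that also occur in a transcript of another gene, and the y axis its mean FPKM (n = 3) in each group on a log axis, with squares for members and triangles for complex I. COX2, COX3 and ATP6, each with 99.5% or more shared, lie between 81.6 and 161.8 FPKM, COX1 with 30.8% shared lies at 14860 and 15500, and ATP8, with 0% shared, is low as well.

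Complex I, the largest complex of the chain and the entry point for NADH, served as a comparison. Of its 38 tested nuclear genes, 4 were called higher (10.5%, against 13.9% of all tested genes) and 0 lower (against 17.9%), with a median change of −0.000. Leaving out alone replicate 1 gave 7 of the 38 higher and 0 lower, against 14.1% and 17.4% of all tested genes. Over all 45 tested genes of complex I the calls then went from 7 higher to 12. The 4 called with all libraries were Ndufb5, Ndufb3, Ndufb9 and Ndufb10. Their calls were lost in 0, 4, 5 and 12 of 20 other settings, in that order. Of all 13 mitochondrial mRNAs, 3 were called, all higher (23.1%, against 13.9% of all tested genes) and all of complex I. ND1 went from 5765, 5456 and 5224 FPKM alone to 6432, 6665 and 6990 in co-culture (1.22-fold, adjusted p = 0.00445), and ND2 from 3283, 3141 and 3068 to 4133, 4138 and 4354 (1.33-fold, adjusted p = 0.000219). The third was ND4L (1.34-fold), of whose windows 98.5% are shared with a pseudogene. The call of ND1 was lost with no filter and under quantile normalization, and those of ND2 and ND4L in 0 other settings. COX1 and CYTB, with the changes given above, were not called, and the difference between them and ND1 or ND2 was not tested.

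Genes that build the complexes were mostly not called, with calls in both directions. For comparison, 13.9% of all tested genes were called higher and 17.9% lower. For complex II, 1 of 4 assembly factors was called: Sdhaf4, which binds free SDHA, rose from 13.7 to 16.3 FPKM on average (log2 change 0.23, adjusted p = 0.00754), alongside Sdha. For complex III, 1 of 5 was called, Uqcc2, which is needed for cytochrome b and fell from 147.9 to 133.2 FPKM (−0.15, adjusted p = 0.0206). For complex IV, 3 of 24 were called higher and 2 lower (12.5% and 8.33%). The copper chaperone Cox17 (−0.17, adjusted p = 0.0215) and Cox11, which helps insert copper (−0.28, adjusted p = 0.0288), fell, and Cmc1 (0.18, adjusted p = 0.0195) and Cox20 (0.23, adjusted p = 0.0322), which assist COX1 and COX2, rose. For complex V, Tmem242 (0.16, adjusted p = 0.0207) and the insertase Oxa1l (0.12, adjusted p = 0.0346) rose among 6. Each of these assembly calls was lost in some other settings. Sdhaf4 lost it in 2 of 20 (voom and no filter), Uqcc2 in 3, Cox17, Cmc1 and Tmem242 in 6, Cox20 in 7 and Oxa1l in 8, and Cox11 in 5 of 19. Cox11 and Cox20 were no longer called without alone replicate 1 (adjusted p = 0.0884 and 0.0918).

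The members with covalently bound haem, Cycs and Cyc1, both fell. Of 9 tested genes for haem and cytochrome maturation, 0 were called higher and 2 lower (22.2%, against 17.9% of all tested genes). The median change of the 9 was 0.054 (log2), and 5 of the changes were above 0. The 2 called were Hccs, the enzyme that attaches haem to Cycs and Cyc1, and Cpox. Hccs was 6.82, 6.02 and 6.25 FPKM alone and 5.27, 5.32 and 4.79 in co-culture (log2 change −0.27, SE 0.059, adjusted p = 0.00682). Cpox, an enzyme of haem synthesis, was 10.4, 10.0 and 9.98 FPKM alone and 7.32, 7.58 and 7.37 in co-culture (−0.40, SE 0.044, adjusted p = 9.77e-05). Neither overlapped between groups, and both were called in all 20 other settings. The other 7 genes of that list of 9, among them Alas1, which starts haem synthesis (0.16, adjusted p = 0.0507), were not called.

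Among regulators, the coactivator Ppargc1a was below the level for testing, at 0.738 FPKM alone and 0.752 in co-culture. Nrf1 (1.57 and 1.40 FPKM, adjusted p = 0.257) and the GABP subunit Gabpa (13.5 and 13.8 FPKM, adjusted p = 0.664) were not called. Of the 12 tested, 3 were lower (25%, against 17.9% of all tested genes) and 1 higher (8.33%, against 13.9%). Those lower were Myc from 96.9 to 82.7 FPKM (log2 change −0.23, adjusted p = 0.00275), the coactivator Pprc1 (−0.17, adjusted p = 0.0166) and the oestrogen-related receptor Esrra (−0.15, adjusted p = 0.0495). The call of Esrra was lost in 14 of 20 other settings, among them without alone replicate 1 (adjusted p = 0.0827), and that of Pprc1 in 3. The promoter factor Sp1 was the 1 called higher (0.19, adjusted p = 0.0144), a call lost in 3 settings.

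Of 19 tested genes for expression of mitochondrial DNA, 1 rose and 3 fell (5.26% and 15.8%, against 13.9% and 17.9% of all tested genes). Ssbp1, which coats single-stranded mitochondrial DNA, rose from 9.84, 9.94 and 10.1 FPKM to 12.6, 12.7 and 12.7 (log2 change 0.32, adjusted p = 0.000274). RNase P, which cuts tRNAs out of the long transcripts that also yield the 6 members, is made of 3 proteins. Trmt10c fell from 18.1, 17.4 and 15.8 FPKM to 12.5, 12.7 and 12.2 (−0.43, adjusted p = 0.000187) and Hsd17b10 fell too (−0.22, adjusted p = 0.00241), while Prorp, the subunit that cuts, was not called (2.78 and 2.81 FPKM, 0.01, adjusted p = 0.923). The polymerase Mtpap, which adds their poly(A) tails, fell as well (−0.15, adjusted p = 0.0362), but not by the test in 11 of 20 other settings. Tfam, which packages and transcribes mitochondrial DNA, was not called (0.02, adjusted p = 0.77).

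Among 7 tested genes that move ATP, phosphate or protons across the mitochondrial membranes, 1 was called, lower (14.3%, against 17.9% of all tested genes). Vdac3, a pore of the outer membrane, fell from 113.5, 109.4 and 112.4 FPKM to 88.2, 90.2 and 87.0 (log2 change −0.33, adjusted p = 5.24e-05). The main exporter of ATP, Slc25a4, was not called at 344.9 and 341.4 FPKM, nor were Vdac1 and Vdac2. Of the subunits outside the naming rule, Ndufa4, which sits in complex IV, and Dmac2l, of complex V, were not called (−0.01 and 0.05), and Ndufa4l2 was below the level for testing.

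In RefSeq coordinates on GRCm38.p6, counted from 1, the called members lie as follows. Uqcrh spans chr4:116066965-116075070, Cyc1 chr15:76343513-76346260, Uqcrq chr11:53427922-53430831 and Uqcrfs1 chr13:30540312-30545316. Cycs spans chr6:50562563-50566569 and Sdha chr13:74322255-74350240. Cox6b1 spans chr7:30616971-30626114 and Cox7a2 chr9:79755241-79771422. Atp5e spans chr2:174461075-174464101, Atp5b chr10:128083307-128090388, Atp5g2 chr15:102662868-102671047 and Atp5pb chr3:105942698-105959263. Cox6a2 spans chr7:128205435-128206366.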

How the data were processed

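RNA sequencing of 3 alone and 3 co-culture libraries was compared. The table deposited by the authors holds FPKM per gene and library. Per the labels' protocols, TRIzol RNA went into libraries made with the VAHTS Universal V6 kit. Per the submitters' processing notes, fastp, HISAT2, HTSeq and mm10 were used. Versions, annotation, strand setting and the treatment of human reads or of reads with several matches were not given in the sources used here. Values of overlapping genes and near copies are therefore uncertain. Each value column carries the name of 1 sample, and 0 were left over.

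Low FPKM values are whole multiples of what 1 read is worth, so whole reads were recovered for each of the 21436 genes (tolerance 1e-06), with the scale set by the 1545 bases of COX1. The implied gene length was a whole number (tolerance 0.001 bases) for 99.2% of the 12045 genes that had 100 reads or more, and for 100% after a common factor. limma 3.58.1 in R 4.3.3 (lmFit, eBayes with trend, two-sided) was run on log2(FPKM + 1), co-culture minus alone. It covered the 10055 genes whose mean reached 1 FPKM (11381 were not tested). The fit was also run on simulated reads, with independent genes, a fixed dispersion and no shift of any library. That run therefore does not cover calls that hinge on alone replicate 1. A fold is the ratio of the mean FPKM of the groups, while log2 changes understate the change of low genes. limma-voom on the recovered reads called 7 members higher and 4 lower.

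The members and the gene lists were chosen with earlier results of these data known. The lists were assembly factors of complexes II, III, IV and V, haem and cytochrome maturation, regulators, mitochondrial DNA expression, ATP export and related carriers, other subunits, complex I, and markers of fibroblasts and preadipocytes, mature and brown adipocytes, macrophages, endothelium, epithelium, striated muscle and blood. None of the endothelium, epithelium or brown adipocyte genes reached the level for testing, and the 1 tested macrophage gene was not called. Values in every library are given for the mitochondrial members, Sdha to Sdhd, Cyc1 and Cycs, the 4 tested genes with the smallest p and the 2 most abundant of complexes III, IV and V, and isoform pairs. From the other lists up to 4 called genes by smallest p are named, with 5 fixed regulators, and Vdac1, Vdac2, Slc25a4, Alas1 and a few more were named after their values were seen. The alternatives were other pseudocounts (0.1 and 0.01), filters (none and 5 FPKM), scalings, eBayes without trend, array weights, voom, a GC and length correction (splines of 5 degrees of freedom), a replicate block, each library left out, and a threshold of 0.01. Deviations of libraries with the same replicate number correlated at −0.044, 0.109 and −0.083, and those with different numbers at −0.123 to 0.171. With 3 libraries per group these values cannot decide whether the numbers pair the libraries, and the labels do not say so.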

Additional observations from a re-analysis of the deposited data

How the results depend on the processing

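No result changed direction while called in any alternative. Members called lower numbered 5, and 4 to 6 in every alternative. Members called higher numbered 7, and were 4 with no filter on low values, 14 under quantile normalization, 14 with the GC and length correction, 11 when FPKM were rescaled without mitochondrial genes, 11 with array weights and 2 at an adjusted p below 0.01. With each library left out the number was 3 to 18, 18 without alone replicate 1, 3 without alone replicate 2, 4 without alone replicate 3 and 3 without co-culture replicate 3. The cause was not tested, except that the stricter threshold acts by construction. The fit with no filter tested more genes and also gave other SEs. These were 0.0546 against 0.0491 for Atp5g2, and 0.0225 against 0.0332 for Atp5e. Over all tested genes, 1402 were called higher, 635 at an adjusted p below 0.01 and 925 to 1419 with each library left out, the lowest being without co-culture replicate 3, and 1799 were called lower, 1073 at an adjusted p below 0.01. The replicate block left 6 members higher and 4 lower, having lost Atp5g2 (adjusted p = 0.0524) and Atp5pb (0.0849), and 1258 and 1640 of all genes. Over the 48 members and 20 alternatives, 888 of 960 values kept their side of the threshold, 35 lost the call (6 members) and 37 gained it (17 members), and 25 members had the same call throughout. The sign differed from that with all libraries in 24 values of 15 members, 0 of them called in either fit. No scaling moved the median of all genes by more than 0.02 on the log2 scale. ATP8, with 671 reads in all, and the isoforms Cox4i2, Cox6a2, Cox6b2, Cox7a1 and Cox8b, with 1 to 47, are limited by depth.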
